A study of Homo sapiens with 6 samples.

Results

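The genes described here are 8 genes of lipid and sterol synthesis: SREBF1, SREBF2, FASN, ACACA, SCD, ACLY, HMGCS1 and SQLE. They were chosen by function, with earlier results of these data known. A gene counted as listed when a row of the promoter, enhancer or super-enhancer lists named it, and 6 of the 8 genes were named by at least 1 row. In all, the lists named 8279 gene symbols and 35.7% of 20037 protein-coding genes. The lists came from ChIP-seq of the human neuroblastoma line CHP-134, in which N-Myc was pulled down in 3 replicates and JMJD6 in 3. The N-Myc chromatin was cross-linked with formaldehyde alone and the JMJD6 chromatin with DSG followed by formaldehyde, so protein and cross-linking cannot be told apart in any difference between the lists. No treatment, allele or time differed between the samples, and all came from the same cell line. The lists hold positions common to the 3 replicates of a protein, without height, count or value per replicate, so every result below is a presence or a position with no spread between replicates, and no test was made.

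N-Myc is a basic helix-loop-helix transcription factor that binds E-box DNA with its partner MAX, and JMJD6 is an oxygenase of the Jumonji family that is found in the nucleus. Lipid synthesis runs from citrate and acetyl-CoA into fatty acids and into sterols. Its genes are under the control of the sterol regulatory element binding proteins (SREBPs), membrane-bound factors that are cut free when sterols are low and then bind sterol regulatory elements, often beside NF-Y and GC boxes. SREBF1 and SREBF2 encode these factors. ACLY makes cytosolic acetyl-CoA from citrate, ACACA carboxylates it to malonyl-CoA, FASN builds palmitate, and SCD introduces the first double bond. HMGCS1 makes the precursor of mevalonate, and SQLE oxidises squalene on the way to sterols.

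N-Myc was listed at the promoters of SREBF2, HMGCS1, ACLY and ACACA, thus at 4 of the 8 genes, and JMJD6 at none. A promoter row spans 1 kb on each side of a RefSeq start site. Of the 5114 N-Myc promoter rows, 131 held no peak of the common list, but all promoter rows of these 4 genes did hold one. For comparison, 17.7% of 19126 protein-coding genes on the listed chromosomes had a promoter in the N-Myc list, and 6.8% of all annotated genes did. Symbols were matched exactly, and 3858 of the 4150 symbols in the N-Myc promoter list were found in the annotation. These background shares may therefore be low. SREBF1, FASN, SCD and SQLE had no promoter row. A typical enhancer in the N-Myc list was assigned to 6 of the 8 genes, beside 30.2% of protein-coding genes, and none was assigned an N-Myc super-enhancer, beside 1.27%. The list of JMJD6 promoters named 0 of the 8 genes, beside 0.627% of protein-coding genes, the list of promoters bound by both proteins named 0, beside 0.293%, and the list of JMJD6 enhancers named 0, beside 0.873%. With JMJD6 rows this rare, 0 of 8 genes is also the count nearest to the background.

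**Figure D1:**
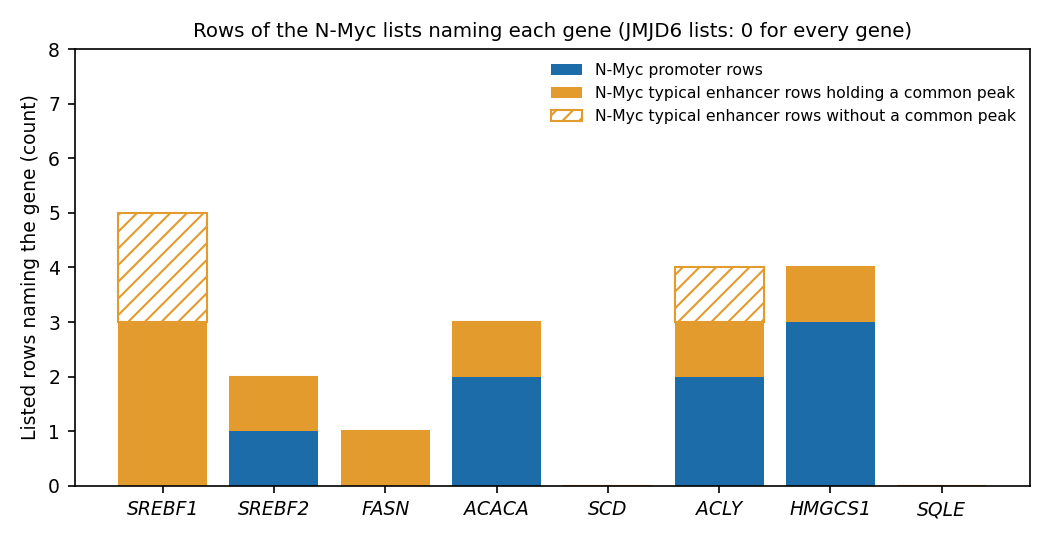
Number of rows (vertical axis, count) in the N-Myc promoter and typical enhancer lists that name each of the 8 genes; hatched bars are enhancer rows in which no common peak lies. SREBF1 has 5 enhancer rows and no promoter row, HMGCS1 has 3 promoter rows, and SCD and SQLE have none.

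Of the regulators, SREBF2 had a listed promoter and SREBF1 did not. The SREBF2 row was centred on the start site at position 42229082 of chromosome 22 (GRCh37, plus strand). It held 1 common N-Myc peak, chr22:42228509-42229005, which was 497 bp wide, wider than 65.2% of the 10172 common N-Myc peaks. Its centre lay 325 bp upstream of the listed start and its near edge 77 bp upstream, within an exon of the antisense transcript SREBF2-AS1. The peak held no CACGTG, the canonical E-box, but 1 match to the core of the sterol regulatory element, TCACNCCAC, centred 102 bp upstream of the start. The 300 bases of the peak nearest the start, chr22:42228706-42229005 on the plus strand of GRCh37, are shown because they hold this match, which is in capitals. The peak also held 2 matches to GGGCGG, the GC box, centred 527 and 383 bp upstream of the start and outside these 300 bases.
SREBF2 peak: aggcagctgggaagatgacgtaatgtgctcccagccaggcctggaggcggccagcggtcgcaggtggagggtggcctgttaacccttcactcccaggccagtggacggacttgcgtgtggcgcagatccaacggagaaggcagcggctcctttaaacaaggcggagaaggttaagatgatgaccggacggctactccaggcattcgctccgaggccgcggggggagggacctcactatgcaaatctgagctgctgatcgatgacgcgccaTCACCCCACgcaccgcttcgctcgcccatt
A typical enhancer of 3180 bp lay over the same start site (chr22:42227609-42230788). It was assigned to SREBF2 at +89 bp and to SHISA8, and it held the same peak, so the 2 rows of SREBF2 rest on 1 peak.

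HMGCS1, the enzyme at the entry of the mevalonate pathway, was named by 3 promoter rows, for start sites at 43313326, 43313399 and 43313614 of chromosome 5 (GRCh37, minus strand). All 3 rows held the same common N-Myc peak, chr5:43313623-43313898. At 276 bp it was the narrowest of the peaks at the 8 genes, wider than only 8.6% of the N-Myc list. It ended 9 bp upstream of the outermost start, in sequence annotated as intergenic, and it was the sole peak in the enhancer of 1940 bp assigned to HMGCS1 at -58 bp and to CCL28. The peak held no CACGTG, 1 match to the sterol regulatory element core centred 155 bp upstream of the start, 4 matches to CCAAT (the NF-Y box) and 2 to GGGCGG (the GC box). The whole peak is shown on the minus strand, with all these matches in capitals. The first run of capitals joins a pair of overlapping CCAAT matches on opposite strands, and ATTGG and CCGCCC are matches read from the other strand.
HMGCS1 peak: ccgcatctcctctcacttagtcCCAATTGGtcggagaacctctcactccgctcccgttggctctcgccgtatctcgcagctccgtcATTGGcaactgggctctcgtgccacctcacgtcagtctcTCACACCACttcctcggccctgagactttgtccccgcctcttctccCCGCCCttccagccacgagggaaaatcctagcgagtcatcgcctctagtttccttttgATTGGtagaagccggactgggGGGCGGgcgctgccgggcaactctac

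ACLY and ACACA, the enzymes that supply acetyl-CoA and malonyl-CoA, were the genes with a canonical E-box in a promoter peak. ACLY was named by 2 promoter rows whose start sites, 40075272 and 40075275 of chromosome 17 (minus strand), are 3 bp apart. Both rows held the same 2 common N-Myc peaks, one centred 536 bp upstream of the start (425 bp wide) and one centred 912 bp downstream of it in an intron (312 bp wide). The upstream peak lay in an intron of longer ACLY transcripts and held 1 CACGTG, centred 457 bp upstream of the start. An enhancer of 13806 bp was assigned to ACLY at -5107 bp and to CNP. It held both of these peaks and a further one of 558 bp, centred 11531 bp upstream of the listed start. That peak lay over an upstream ACLY start of the annotation and over the start of ODAD4, whose older symbol TTC25 has a listed promoter there. The other ACLY enhancer, assigned at +54083 bp and over the KLHL11 promoter, held no common peak.

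ACACA had a pair of listed promoters, at 35716059 and 35766902 of chromosome 17 (minus strand), each with 1 common N-Myc peak. The peak at the downstream start was 637 bp wide, wider than 82.6% of the list. It lay in an intron, centred 523 bp downstream of the start, and held 1 CACGTG and 1 CACGCG. The peak at the upstream start was 512 bp wide and centred 698 bp upstream, over an annotated start site of TADA2A, a gene read in the other direction. The same peak was the 1 peak of the ACACA enhancer (1871 bp, at -88 bp), which was also assigned to TADA2A. Which of these neighbours a row reflects cannot be told apart from positions. A further intronic peak of 466 bp, centred 264294 bp downstream of the listed start at 35716059, held 1 CACGTG and lay in no row naming ACACA.

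The canonical E-boxes of the fatty acid genes are set side by side with 12 reference bases on each side, in the direction of the gene and with CACGTG in capitals (all GRCh37, chromosome 17, minus strand). The positions are chr17:40075717-40075746 for ACLY, chr17:35715525-35715554 for the ACACA promoter peak, chr17:35451887-35451916 for the distant ACACA peak and chr17:80171362-80171391 for the FASN enhancer peak.
ACLY promoter peak: ggagagaggctcCACGTGctaaaggaaagc
ACACA promoter peak: gagggagaagacCACGTGggaagggggcgt
ACACA distant intron: agaacagttgacCACGTGtgtacaagctcc
FASN enhancer peak: gatggatacggaCACGTGcctttttctgag

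**Figure D2:**
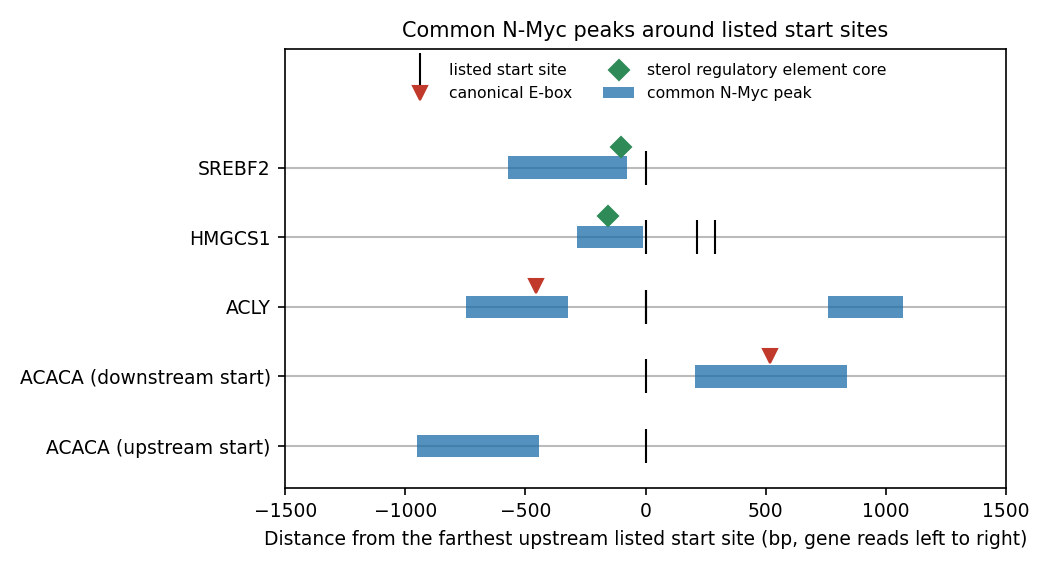
Positions of common N-Myc peaks (blue bars), listed start sites (black ticks), canonical E-boxes and sterol regulatory element cores around the listed starts of the 4 genes. The horizontal axis is distance in bp from the outermost listed start of each track, with the gene read from left to right. ACACA has a separate track for each of its listed starts, measured from that start. No bar covers a black tick, the E-boxes lie in ACLY and ACACA peaks, and the sterol regulatory element cores lie in SREBF2 and HMGCS1 peaks.

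The peaks in promoter rows lay beside the listed start sites and not over them, although the far ACLY enhancer peak covered an annotated start that has no ACLY row. In none of the 4 genes with a promoter row did a common N-Myc peak cover a listed start, whereas a peak covered one in 2366 of the 4052 listed genes with a peak in a promoter row (58.4%). The gap from the nearest peak to a listed start was 9 bp for HMGCS1, 77 bp for SREBF2, 205 bp for ACACA and 324 bp for ACLY. With 4 genes and no height in the lists, this is a description of where the peaks lay.

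SREBF1 differed from SREBF2 in having enhancer rows only. It was assigned 5 typical N-Myc enhancers, a number reached by 54 of the 6061 protein-coding genes with any such row (0.891%), whose median was 1 row. The regions lay at +148719, +113384, +49921, +5163 and -77547 bp. All but the last were also assigned to RAI1, and the last to TOM1L2. Together they held 5 common N-Myc peaks, of which 4 lay in RAI1 introns and 1 in a TOM1L2 intron. The peak at chr17:17687120-17688961 was 1842 bp wide, wider than 99.8% of the list, and held 3 matches to the E-box form CATGTG and 5 to CCAAT. None of the 5 peaks held CACGTG. The longest region (17748 bp, +5163 bp) covers the SREBF1 start itself but held no common peak, and so did the region at +113384 bp. A common peak of 281 bp in an SREBF1 coding exon lay 218 bp from an internal annotated start, in no listed region. Counting any common peak within 1 kb of an annotated start, SREBF1 made it 5 of the 8 genes, beside 21.5% of protein-coding genes.

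FASN was named by 1 row, an enhancer of 1848 bp at -114600 bp that was also assigned to SLC16A3 and that covers the listed promoter of CCDC57. Its single common N-Myc peak (448 bp, intergenic) held the CACGTG shown above. The common peak nearest to the FASN start was another, 9252 bp upstream in a coding exon of CCDC57. It was 339 bp wide, held 1 CACGTG and lay in no listed region, so the files assign no promoter-proximal N-Myc peak to FASN.

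Over the 8 genes, the rows held 13 common N-Myc peaks, 6 of them in promoter rows and 7 in enhancer rows alone. Widths ran from 276 to 1842 bp with a median of 468 bp, and 10 of the 13 were wider than the median of the N-Myc list, 418 bp. Of the 11 enhancer rows, 8 held a common peak and 3 did not, beside 144 of all 4649 N-Myc enhancer rows without one. Of the same 11 rows, 6 overlapped a listed promoter, and the share over all enhancer rows was not measured. Thus much of the enhancer count repeats the promoter count: SREBF2, HMGCS1, ACACA and ACLY each have an enhancer over their own promoter, and only SREBF1 had an enhancer that overlapped no listed promoter.

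The canonical E-box was found in 3 of the 13 peaks, beside 33.4% of all common N-Myc peaks and 36.9% of the 3550 peaks in listed promoters. Motifs were searched on both strands. CACGCG was in 2 of the 13 (15.9% of the list), CATGTG in 3 (42.1%), CCAAT in 4 (46.5%) and GGGCGG in 6 (31.9%). The sterol regulatory element core was in 2 of the 13 peaks, SREBF2 and HMGCS1, beside 2.32% of all common N-Myc peaks and 2.37% of those in listed promoters. CANNTG, which includes CACGTG and CATGTG, was in 11 of 13, beside 93.4%. In promoter windows of RefSeq (GRCh38.p14, from 250 bases before to 50 after the start), CACGTG was in none of the 6 genes with an entry, beside 8.25% of 21156 protein-coding promoters. These 6 were SREBF1, SREBF2, ACACA, SCD, ACLY and HMGCS1. The background share is per promoter, and a gene can have several windows. By gene, 1629 had a CACGTG in a window and 13472 did not. The count for the 6 genes depends on the window. Within 1 kb of any annotated start (GRCh37), 5 of the same 6 held CACGTG, beside 51.9% of 19222 protein-coding genes. The 6 genes had a median of 8.5 annotated starts and protein-coding genes a median of 5. The sterol regulatory element core was in the window of SREBF2 alone, beside 1.1% of the promoters. By gene, 222 had the core in a window and 14879 did not. The core of the HMGCS1 peak, centred 155 bp upstream of a listed start, lies directly beyond the edge of the upstream HMGCS1 window. Its absence from that window therefore does not mean that the HMGCS1 promoter lacks one. Across all genes with a window, 34.5% of the 1629 genes with a CACGTG had a listed N-Myc promoter and 17.1% of the 13472 without one. The promoter E-boxes of ACLY and ACACA, centred 457 and 519 bp from a listed start, lie beyond such a window around that start.

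SCD and SQLE were in no row of any list. The common N-Myc peak nearest to SCD was 160518 bp from its start, farther than for 74.8% of protein-coding genes, and lay at the ERLIN1 promoter. The one nearest to SQLE was 25143 bp away, at the promoter of ZNF572, and 40.9% of protein-coding genes had a nearer one. The median distance over the 8 genes was 0.202 kb, beside a median of 44.5 kb (quartiles 4.35 and 162 kb) over 20136 protein-coding genes. Each distance was to the nearest of any annotated start, which for SREBF1 was an internal one. The 6 genes with a RefSeq window had a median of 8.5 such starts, beside 5 for protein-coding genes, and the distances were not adjusted for this. The genes thus fell into those with a peak within 1 kb of an annotated start (SREBF1, SREBF2, ACACA, ACLY and HMGCS1) and those without (FASN, SCD and SQLE).

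No common JMJD6 peak lay within 100 kb of a start of the 8 genes. The nearest common JMJD6 peak was 134 kb from SCD, 253 kb from FASN, 384 kb from SREBF2 and 606 kb from ACACA. It was 1350962 bp from SREBF1, 1351365 bp from ACLY, 2140136 bp from HMGCS1 and 15663747 bp from SQLE. Their median was 979 kb, beside a median of 2.51 Mb (quartiles 735 kb and 6.94 Mb) over protein-coding genes. No peak of these 13 overlapped one of JMJD6, beside 2.37% of all common N-Myc peaks, so 0 of 13 is near the background. SCD was the sole gene of the 8 whose nearest JMJD6 peak, in a coding exon of WNT8B, was nearer than its nearest N-Myc peak.

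**Figure D3:**
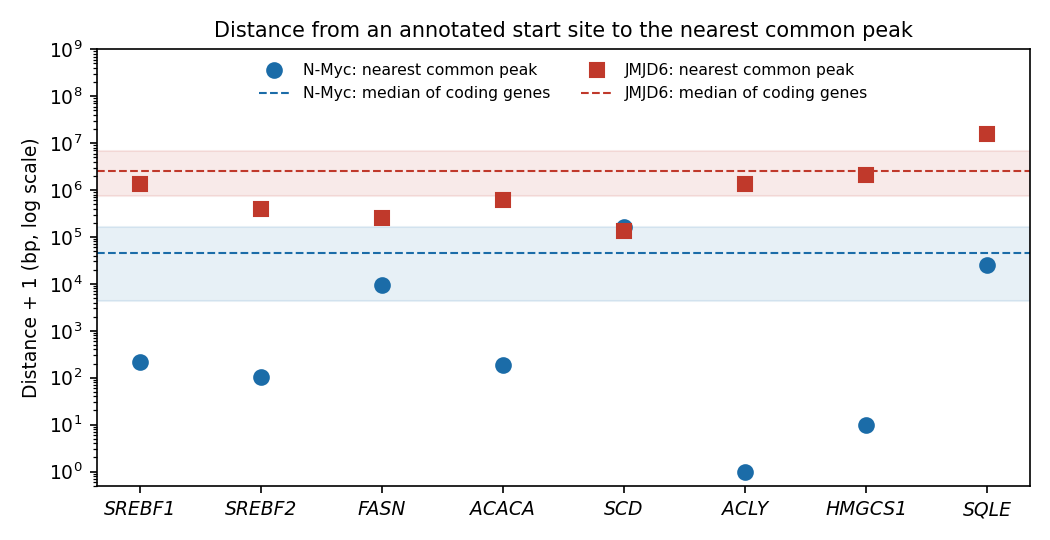
Distance in bp plus 1 (log scale) from an annotated start site of each gene to the nearest common N-Myc peak (blue circles) and JMJD6 peak (red squares); dashed lines are medians and shaded bands the quartiles of protein-coding genes. For N-Myc, 5 genes lie under 1 kb and SCD lies near the upper quartile of 162 kb, while JMJD6 distances run from 134 kb to 15.7 Mb.

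The wider pathway was read from a list of 90 genes in 4 role groups that includes the 8. Leaving the 8 out, and with 4 genes of chromosome X set aside because the promoter lists have no rows there, 18 of 78 genes had a listed N-Myc promoter (23.1%), against the 17.7% of protein-coding genes given above. In mevalonate and sterol synthesis it was 5 of 18 (27.8%), among them CYP51A1, DHCR7, FDFT1 and MVK. MVK encodes mevalonate kinase. FDFT1 encodes squalene synthase, just before SQLE, and CYP51A1 and DHCR7 act in the later steps. In fatty acid synthesis, elongation and desaturation it was 7 of 27 (25.9%), among them ELOVL1 and ELOVL6, which elongate fatty acids, FADS2, a desaturase, and HACD1 and HACD2, dehydratases of the elongation cycle. In glycerolipid and phospholipid synthesis it was 5 of 19 (26.3%): AGPAT1, DGAT2, PCYT1A, PTDSS1 and PTDSS2. In the control of SREBP and sterol uptake it was 1 of 14 (7.14%), NR1H3, which encodes the oxysterol receptor LXR alpha. These groups are small, and no test compared them.

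**Figure D4:**
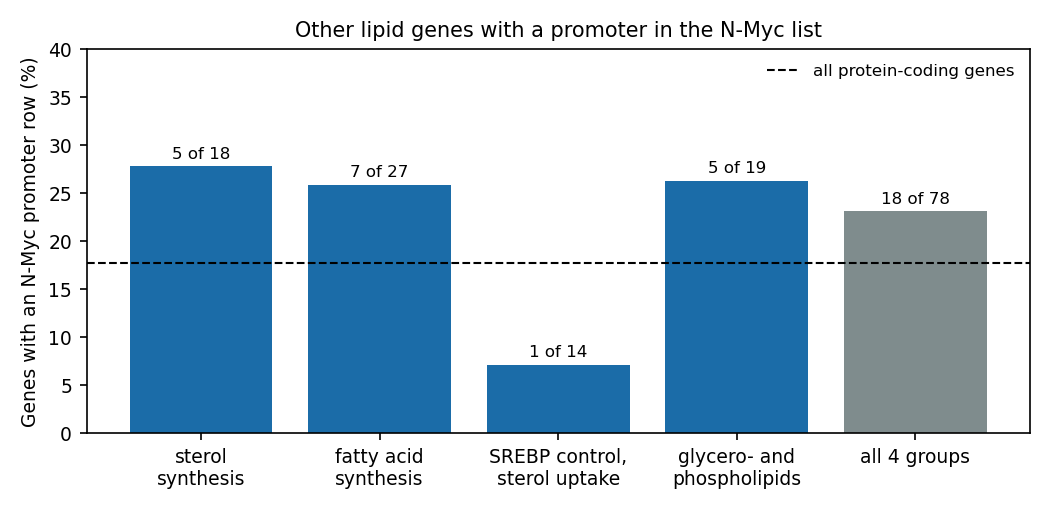
Share of genes (percent) with a promoter in the N-Myc list in each role group of the wider list, without the 8 genes and without chromosome X; numbers above bars are counts and the dashed line is the share of protein-coding genes, 17.7%. The bars of the 3 synthesis groups lie between 25.9% and 27.8%, and the group of SREBP control and sterol uptake lies at 7.14%.

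PTDSS2, which encodes a phosphatidylserine synthase, was the sole gene of the 90 with a JMJD6 row. Its promoter on chromosome 11 (chr11:449279-451279) held a common JMJD6 peak of 288 bp, chr11:450041-450328, and a separate N-Myc peak, chr11:450923-451314. The peaks did not overlap, so the row in the list of promoters bound by both proteins rests on neighbouring peaks and not on a shared one. A typical enhancer over the same promoter was also in the lists of both proteins. Among the 22 listed genes of the wider list, including the 4 described first, 9 had a CACGTG in a promoter peak, beside 39.1% of the 4052 listed genes with a peak. A sterol regulatory element core was in a promoter peak of 3, HMGCS1 and SREBF2 described above and PTDSS2 as 1 of the 18 others, beside 2.64% of listed genes. A peak covered a listed start in 8 of the 22, among them CYP51A1 and ELOVL6, beside the 58.4% given above.

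Of the 8 genes, 4 lie on chromosome 17 (SREBF1, FASN, ACACA and ACLY). On that chromosome 22.2% of 1169 protein-coding genes had a listed N-Myc promoter, beside 17.4% of 17957 on the other autosomes. The paper describes this cell line as having MYCN amplification and a gain of the distal long arm of chromosome 17. That is a part of the chromosome, whereas the share above is for all of it. Which of the 4 genes lie in the gained part was not examined. Any bearing of copy number on the lists was not tested. Of 10 adrenergic neuroblastoma markers, 9 were named by an N-Myc row, and of 5 mesenchymal markers 1 was, FOSL2, beside 35.4% of protein-coding genes named by any N-Myc row. The lists held 10172 common N-Myc peaks and 561 common JMJD6 peaks, of which 241 regions were shared. Read depth per sample is unknown from the lists, so a gene without a row was not called at the authors' threshold in all replicates, which does not show that the protein was absent.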

How the data were processed

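ChIP-seq samples of CHP-134 cells were grouped by antibody as labelled (N-Myc or JMJD6, 3 replicates each). According to the methods of the study, the authors aligned reads with BWA, used SAMtools and BEDTools, called peaks against input with MACS2 (version 2.1.1.20160309 in the submitters' processing notes) and kept those in all 3 replicates. Enhancers came from ROSE on H3K27ac peaks and their genes from GREAT. The 12 deposited lists hold positions in bp (hg19) with gene symbols, and no signal, count or q-value, so the depth of each sample is unknown here and replicates could not be compared.

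The 8 genes, the role lists and the motifs were chosen with earlier results of these data known. All 8 genes are named. Of the other pathway genes, those with a JMJD6 row and up to 5 per role with an N-Myc promoter, in alphabetical order, are named, and genes outside the pathway where they share a region or peak. One item that this rule would name is not reported here. CYP51A1 and ELOVL6 as genes with a covered start, and FOSL2, were picked after their values were seen. WNT8B, ERLIN1 and ZNF572 are named as the site of a nearest peak.

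Rows were matched by exact symbol, and overlap meant at least 1 bp. Annotated starts and genes came from GENCODE lifted to GRCh37, and all 8 promoter rows lay within 73 bp of an annotated start. Sequence was read from GRCh37, and promoter windows from RefSeq (GRCh38.p14), where 6 of the 8 genes matched (all but FASN and SQLE). Background shares were taken over protein-coding genes on the chromosomes the lists cover. Python 3.11.15, numpy 2.4.6, pysam 0.24.0 and matplotlib 3.10.9 were used, and the overlap, distance and motif routines were tested on simulated data. Sets were described by counts, with no test.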

Additional observations from a re-analysis of the deposited data

How the results depend on the processing

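Of 15 alternatives over 7 results, 9 left the value within 1.5 times and 6 moved it. Genes with a listed promoter, 4, ranged from 3 to 5. Genes with an assigned enhancer fell from 6 to 1 when regions over a listed promoter were left out. The share of protein-coding genes that keep an enhancer under this exclusion was not measured, so the 1 has no background. Common peaks numbered 8, in place of the 13 in rows, when peaks within 1 kb of an annotated start were counted instead. These 8 include the SREBF1 exon peak, which lies in no row and is not among the 13. Peaks with an E-box rose from 3 to 6 with CACGCG and CATGTG added and to 11 with any CANNTG. The background rose from 6.8% of all annotated genes to 17.7% of protein-coding genes. Genes with CACGTG at the promoter rose from 0 of 6 in the RefSeq window to 5 of 6 within 1 kb of an annotated start, where 51.9% of protein-coding genes have one. These moves follow from the wider or narrower definitions. No paired analysis was possible because the lists have no column per replicate, and for the same reason no replicate could be left out. Width stood in for a stricter threshold, and depth is unknown.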
